A study of Mus musculus with 36 samples.

Results

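The insulin-like growth factor (IGF) axis was followed across 3 kinds of cells sorted from mouse skeletal muscle. It was taken here as 9 genes chosen by name, of the 52636 genes in the count table: the ligand Igf1, the receptors Igf1r and Insr, and the binding proteins Igfbp2, Igfbp3, Igfbp4, Igfbp5, Igfbp6 and Igfbp7. All 9 were in the table, and 8 had enough counts to be tested, Igfbp2 being the exception. IGF-1 acts through its receptor tyrosine kinase IGF1R, a close relative of the insulin receptor INSR, and both signal through IRS adaptors to PI3 kinase and AKT. Secreted binding proteins hold IGFs away from the receptors or carry them to the cell surface, and proteases that cut the binding proteins set the IGF free. In muscle, IGF-1 is known as a growth signal for fibres and satellite cells and as a survival factor for Schwann cells and motor neurons.

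Every group came from S100β-GFP;NG2-dsRed mice, which carry both reporters: GFP driven by the S100b promoter and dsRed driven by the promoter of Cspg4, the gene for NG2. Diaphragm, pectoralis, forelimb and hindlimb muscles of one mouse were dissociated and sorted by FACS for each replicate, with no treatment. S100β-GFP+;NG2-dsRed+ cells, called perisynaptic Schwann cells (PSCs) by the study, are the glia that cover the neuromuscular junction. They were compared with S100β-GFP+ cells, sorted as the other Schwann cells, and with NG2-dsRed+ cells, which include pericytes. The study's methods give ages of P15 to P21. The labels give a range that starts at day 15 in all samples and ends at a day between 21 and 46 that rises by 1 with each sample number until it stays at 46, so the age of a single mouse is not known. Of 12 libraries per cell type in the labels, the table held 9 from PSCs, 8 from the S100β-GFP+ gate and 10 from the NG2-dsRed+ gate, with 5221655 to 9592875 counts each.

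The sort was checked on marker genes. Levels are given as CPM, counts scaled to a library of 1000000 with TMM factors. Cspg4 was high in PSCs and NG2-dsRed+ cells (686 and 663 CPM) and low in S100β-GFP+ cells (70.5), and S100b averaged 254 CPM in PSCs, 6.51 in NG2-dsRed+ cells and only 29.2 in the S100β-GFP+ gate. The summed Schwann cell lineage markers ran from 2725 to 3859 CPM in PSCs and from 79.6 to 477 in S100β-GFP+ cells. Of these 10 genes, 8 were called in that direction by edgeR, Ngfr was not, and Gfra3 had too few counts to be tested. Ngfr averaged 9.29 CPM in PSCs and 8.36 in the S100β-GFP+ gate, and Gfra3 1.07 and 2.06. The study picked Foxd3 and Ncam1 of this list as PSC-enriched on these samples, so these genes are no independent check. Myelinating markers ran from 2582 to 3514 CPM in PSCs and from 1559 to 3757 in S100β-GFP+ cells. The S100β-GFP+ libraries also held fibroblast markers (22173 to 52351 CPM, against 1107 to 3453 in PSCs and 3571 to 22545 in NG2-dsRed+ cells) and macrophage markers (1301 to 12219.9 CPM, against 36.9 to 569 and 14.6 to 79.0). All 10 fibroblast and all 10 macrophage markers had counts in every cell type, and 6 of the macrophage markers averaged under 1 CPM in PSCs. The label Schwann cells for the S100β-GFP+ gate was therefore not used below. NG2-dsRed+ libraries held pericyte and smooth muscle markers (7449 to 16196 CPM) and endothelial markers (1809 to 4188 CPM, against 198 to 790.1 in PSCs). These are bulk samples, in which fewer cells of a type and less RNA per cell cannot be told apart, and the part of any such cells in the values below was not tested unless a value is given.

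The 5 members that were lower in PSCs than in each of the other cell types, Igf1, Igfbp3, Igfbp5, Igfbp6 and Igfbp7, lie on 5 chromosomes in mouse genome build GRCm38. Of all genes tested 14.4% were lower in PSCs in both comparisons, which share the PSC libraries. Igf1 spans chr10:87858265-87937042 and Igfbp6 spans chr15:102144362-102149511, both on the plus strand. Igfbp3 lies at chr11:7206086-7213923 on the minus strand beside Igfbp1, Igfbp5 at chr1:72857932-72874884 on the minus strand beside Igfbp2, and Igfbp7 at chr5:77349240-77408041 on the minus strand. The receptor genes Igf1r and Insr lie at chr7:67952827-68233668 and chr8:3122061-3279617, and Igfbp4 at chr11:99041244-99054392. Promoters are shown for the 5 because these are the members that differed together between the sorted cells. Each is the 250 bases before the gene's start in RefSeq (GRCm38.p6), 5′ to 3′ on the gene's strand, with capitals for matches on either strand to a TATA box (TATAAA) or a GC box (GGGCGG).
Igf1: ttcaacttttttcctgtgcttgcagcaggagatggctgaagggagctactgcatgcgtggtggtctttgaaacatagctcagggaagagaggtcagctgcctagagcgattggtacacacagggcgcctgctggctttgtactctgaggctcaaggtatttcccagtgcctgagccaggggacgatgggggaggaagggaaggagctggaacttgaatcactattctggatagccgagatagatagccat
Igfbp3: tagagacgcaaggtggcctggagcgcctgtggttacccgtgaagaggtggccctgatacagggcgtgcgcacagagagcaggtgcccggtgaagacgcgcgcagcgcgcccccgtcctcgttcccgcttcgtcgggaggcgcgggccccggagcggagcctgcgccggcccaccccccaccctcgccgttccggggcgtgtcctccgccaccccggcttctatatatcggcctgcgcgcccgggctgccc
Igfbp5: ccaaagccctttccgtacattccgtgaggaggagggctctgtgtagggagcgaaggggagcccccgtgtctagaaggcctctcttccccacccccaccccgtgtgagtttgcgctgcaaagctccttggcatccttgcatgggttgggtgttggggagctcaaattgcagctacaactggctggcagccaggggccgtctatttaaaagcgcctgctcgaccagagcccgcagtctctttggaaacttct
Igfbp6: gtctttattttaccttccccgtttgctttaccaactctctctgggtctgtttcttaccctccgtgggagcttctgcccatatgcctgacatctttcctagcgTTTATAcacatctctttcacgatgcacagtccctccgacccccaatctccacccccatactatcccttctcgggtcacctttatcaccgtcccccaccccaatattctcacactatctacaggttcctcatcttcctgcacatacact
Igfbp7: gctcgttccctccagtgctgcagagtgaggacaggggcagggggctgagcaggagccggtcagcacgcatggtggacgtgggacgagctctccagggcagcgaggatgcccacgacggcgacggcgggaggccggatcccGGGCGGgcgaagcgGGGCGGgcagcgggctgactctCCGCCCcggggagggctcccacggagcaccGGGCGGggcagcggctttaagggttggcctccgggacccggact

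These windows were chr10:87860861-87861110 for Igf1, chr11:7213924-7214173 for Igfbp3, chr1:72874866-72875115 for Igfbp5, chr15:102143936-102144185 for Igfbp6 and chr5:77408046-77408295 for Igfbp7. The RefSeq starts used for Igf1 and Igfbp5 lie inside the spans that GENCODE gives these genes, so all or part of their windows lies within the span. The RefSeq starts used for Igfbp6 and Igfbp7 lie before the GENCODE spans. Neither motif was common to all 5 windows. The Igfbp7 promoter was 74.0% G and C with 4 GC boxes, and the Igfbp3 promoter was 73.2% G and C with neither motif. The Igfbp5 and Igf1 promoters, at 58.8% and 52.8% G and C, also had neither, while the Igfbp6 promoter, at 49.6%, held 1 TATA box letter match. Over 32851 promoters of the same length, 12.4% held the TATA letters and 32.7% the GC box letters, and the median G and C content was 52.4%. A match describes letters only.

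Igf1, the ligand, was lowest in PSCs and highest in S100β-GFP+ cells. PSC libraries held 26.8 to 53.8 CPM (median 38.2), S100β-GFP+ libraries 238 to 536 (median 364) and NG2-dsRed+ libraries 37.6 to 214 (median 106). The S100β-GFP+ libraries were all above the libraries of both other cell types, while PSCs and NG2-dsRed+ cells overlapped. Against S100β-GFP+ cells Igf1 was 8.96-fold lower in PSCs (41.2 ± 11.0 CPM, SD, n = 9, against 369 ± 93.4, n = 8; log2 fold change -3.16, SE 0.29, adjusted p = 1.95e-10, edgeR quasi-likelihood test). Against NG2-dsRed+ cells (104 ± 55.0 CPM, n = 10) it was 2.52-fold lower, with a log2 fold change of -1.33 (SE 0.26, adjusted p = 0.000107, edgeR). Of the NG2-dsRed+ libraries, 28 and 35 had the highest Igf1 (157 and 214 CPM) and also the highest summed fibroblast markers (22545 and 17314 CPM), and library 2 had the lowest of both (37.6 and 3571 CPM). Of the S100β-GFP+ libraries, 3 had the lowest of both (238 and 22173 CPM). There the highest Igf1 (536 CPM, library 27) and the highest fibroblast markers (52351 CPM, library 14) were in different libraries. The parts of fibroblast and of macrophage RNA in Igf1 were not tested.

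**Figure D1:**
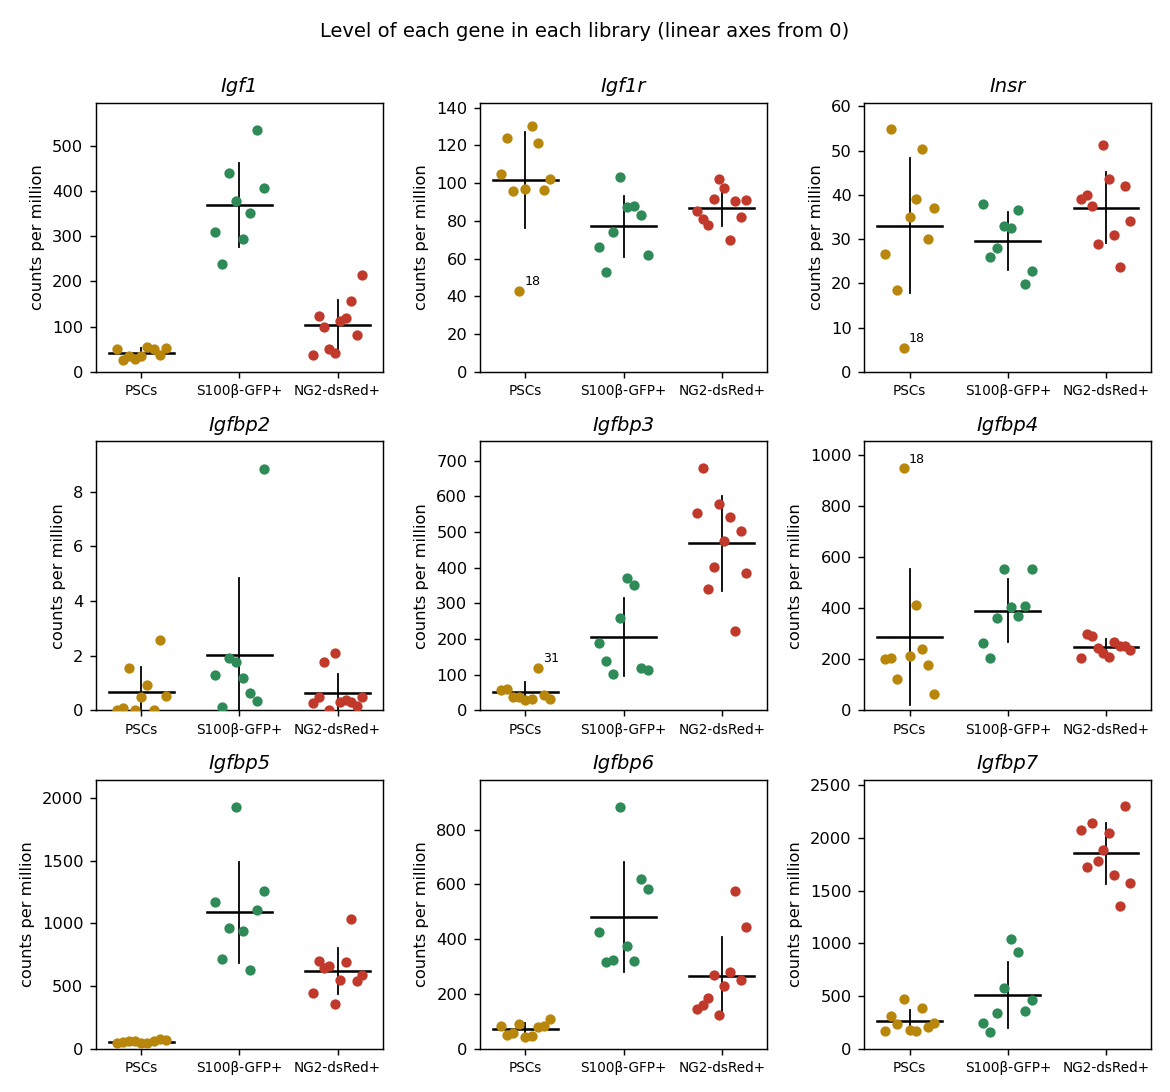
CPM (linear axes from 0) of the 9 genes in each of 27 libraries, by cell type; points are libraries, horizontal lines the mean and vertical lines 1 SD, drawn to no lower than 0. Igf1, Igfbp5 and Igfbp6 were lower in all 9 PSC libraries than in any S100β-GFP+ library, and PSC library 18 stood apart for Igf1r and Igfbp4, as did library 31 for Igfbp3 (numbered, as is library 18 for Insr, where it was lowest).

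Igf1r, which encodes the IGF-1 receptor, was found in every library, with means of 102 CPM in PSCs, 77.1 in S100β-GFP+ and 86.9 in NG2-dsRed+ libraries. The PSC libraries lay between 42.9 and 130.1 CPM (median 102), the S100β-GFP+ libraries between 53.1 and 103 (median 78.5) and the NG2-dsRed+ libraries between 69.7 and 102 (median 87.8). All groups overlapped, and in PSCs 8 libraries lay between 95.6 and 130.1 CPM while library 18 was at 42.9. PSCs had 1.32-fold more Igf1r than the S100β-GFP+ gate, a log2 fold change of 0.40 (SE 0.16) that narrowly passed the threshold of 0.05 in edgeR (adjusted p = 0.0447). That Igf1r call was lost with DESeq2 (adjusted p = 0.0587) and when any of 9 libraries was left out (log2 fold change 0.33 to 0.41 in these), whereas without library 18 the log2 fold change was 0.54 (adjusted p = 0.000487, edgeR). As library 18 had the lowest Igf1r of the PSC libraries, leaving it out had to raise the PSC mean. Against NG2-dsRed+ cells the log2 fold change was 0.23 with a 95% interval of -0.08 to 0.54 (adjusted p = 0.234, edgeR), and it was 0.40 without library 18 (adjusted p = 0.00454).

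Insr, which encodes the insulin receptor, did not differ detectably. CPM spanned 5.41 to 54.9 among PSC libraries (median 35.1), 19.9 to 37.9 among S100β-GFP+ libraries (median 30.3) and 23.8 to 51.4 among NG2-dsRed+ libraries (median 38.3). The 3 groups overlapped, and the lowest value was again PSC library 18. The log2 fold change in PSCs was 0.16 against S100β-GFP+ cells (95% interval -0.37 to 0.68, adjusted p = 0.652, edgeR) and -0.17 against NG2-dsRed+ cells (-0.67 to 0.33, adjusted p = 0.616, edgeR), with the sign of the latter turning without library 18 (0.05).

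The balance of both receptors was compared within libraries, since a ratio does not depend on library size. The log2 ratio of Igf1r to Insr counts was 1.79 ± 0.57 (SD, n = 9) in PSCs, against 1.38 ± 0.38 (n = 8) in S100β-GFP+ and 1.25 ± 0.32 (n = 10) in NG2-dsRed+ libraries. The groups overlapped, running from 1.18 to 2.97, from 0.80 to 2.05 and from 0.96 to 1.93. PSCs exceeded NG2-dsRed+ cells by 0.54 (exact permutation test, two-sided, p = 0.0164, adjusted over the 3 pairs 0.0492). Library 18 again lay highest in PSCs, and without it the difference was 0.39 (adjusted p = 0.104, exact permutation test). The ratio test was also lost without any one of 12 other libraries, with differences of 0.47 to 0.56. The differences of 0.41 between PSCs and S100β-GFP+ cells (p = 0.106, adjusted 0.16) and of 0.13 between the other two (p = 0.422) did not pass in the same exact permutation test.

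Igfbp5, a binding protein that also attaches to extracellular matrix, showed the largest difference of the members. PSC libraries held 43.2 to 74.8 CPM (median 62.5), S100β-GFP+ libraries 629 to 1929 (median 1034) and NG2-dsRed+ libraries 359 to 1034 (median 615). Every PSC library was below every library of the other cell types. The mean of 58.0 ± 11.4 CPM (SD, n = 9) in PSCs was 18.8-fold below the 1088 ± 403 of S100β-GFP+ cells (log2 fold change -4.23, SE 0.23, adjusted p = 1.04e-14, edgeR). It was 10.7-fold below the 621 ± 182 of NG2-dsRed+ cells (log2 fold change -3.42, SE 0.21, adjusted p = 1.45e-13, edgeR). S100β-GFP+ library 14 and NG2-dsRed+ library 28 had the highest Igfbp5 of their cell types (1929 and 1034 CPM). Both also had the highest summed fibroblast markers there (52351 and 22545 CPM), whose part was not tested. The lowest Igfbp5 and the lowest fibroblast markers were in different libraries. In relative terms Igfbp5 varied least among the PSC libraries of all members, with a coefficient of variation of 19.6%. Its neighbour Igfbp2 was close to absent, with 52, 85 and 42 counts summed over the PSC, S100β-GFP+ and NG2-dsRed+ libraries, and it did not pass the filter on low counts. Igfbp2 averaged 0.686, 2.02 and 0.625 CPM, 3 of the 9 PSC libraries having no count and S100β-GFP+ library 33 the highest value, 8.84 CPM.

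Igfbp6, the binding protein that prefers IGF-2, followed the same order as Igf1 and Igfbp5. The PSC libraries lay between 42.1 and 109 CPM (median 79.3), the S100β-GFP+ libraries between 317 and 884 (median 403) and the NG2-dsRed+ libraries between 124 and 575 (median 240). PSCs did not overlap either cell type. The mean in PSCs, 71.4 ± 22.8 CPM, was 6.75-fold below S100β-GFP+ cells (482 ± 201 CPM; log2 fold change -2.75, SE 0.29, adjusted p = 5.32e-09, edgeR). It was 3.73-fold below NG2-dsRed+ cells (267 ± 142 CPM; log2 fold change -1.90, SE 0.28, adjusted p = 1.67e-06, edgeR). As for Igf1, NG2-dsRed+ libraries 28 and 35 were highest, at 575 and 445 CPM.

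Igfbp3, the main carrier of IGFs in blood, was highest in NG2-dsRed+ cells. CPM spanned 28.9 to 119 among PSC libraries (median 38.0), 103 to 372 among S100β-GFP+ libraries (median 164) and 223 to 679 among NG2-dsRed+ libraries (median 489). PSCs lay below all NG2-dsRed+ libraries and, except library 31 at 119 CPM, below all S100β-GFP+ libraries. Library 31 also had the highest summed tenocyte and chondrocyte markers of the PSC libraries (5183 CPM against 170.4 to 371 in the others) and the highest endothelial markers (790.1 CPM against 198 to 566), whose part was not tested, and without it the log2 fold change against S100β-GFP+ cells was -2.31. Most of the tenocyte and chondrocyte sum in library 31 was the cartilage collagen gene Col2a1 (3841 CPM). The tendon genes Tnmd, Scx and Mkx reached at most 18.9, 2.59 and 0.258 CPM in any PSC library. The other genes of the list reached more, with maxima of 46.3 CPM for Thbs4, 116 for Fmod and 257 for Comp. Those of Sox9, Acan and Col11a1 were 27.9, 284 and 601 CPM. With all libraries Igfbp3 was 4.12-fold lower in PSCs than in S100β-GFP+ cells (log2 fold change -2.04, SE 0.30, adjusted p = 1.65e-06, edgeR). It was 9.34-fold lower than in NG2-dsRed+ cells (50.1 ± 28.1 against 469 ± 133 CPM; log2 fold change -3.22, SE 0.31, adjusted p = 7.36e-10, edgeR).

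Igfbp7, a low-affinity IGF binding protein of vessels and matrix, was the most abundant member in NG2-dsRed+ cells. PSC libraries held 167 to 469 CPM (median 235), S100β-GFP+ libraries 164 to 1039 (median 409) and NG2-dsRed+ libraries 1352 to 2300.3 (median 1833). The NG2-dsRed+ libraries lay above all others, whereas PSCs and S100β-GFP+ cells overlapped over the whole PSC range. Igfbp7 was 7.02-fold lower in PSCs than in NG2-dsRed+ cells (264 ± 106 against 1854 ± 293 CPM; log2 fold change -2.81, SE 0.29, adjusted p = 3.58e-09, edgeR). Against S100β-GFP+ cells (513 ± 315 CPM) it was 1.95-fold lower (log2 fold change -0.96, SE 0.28, adjusted p = 0.006, edgeR). That call held with any 1 library left out (log2 fold change -1.1 to -0.74, adjusted p 0.00109 to 0.0265, edgeR). S100β-GFP+ libraries 14, 17 and 22 had 577, 1039 and 919 CPM of Igfbp7 and 946, 3155 and 1663 CPM of summed endothelial markers, while the other 5 had 164 to 459.8 and 143 to 228. They also had the highest summed pericyte and smooth muscle markers of the S100β-GFP+ libraries (1020.2, 1724 and 1439 CPM against 258 to 906) and the lowest macrophage markers (4000.3, 2650.2 and 1301 CPM against 6322 to 12219.9), and the part of these cells in Igfbp7 was not tested. Without these 3 the log2 fold change was -0.20 (adjusted p = 0.523, edgeR). As they had the highest Igfbp7 of their gate, leaving them out had to shrink the difference. The same libraries had the highest Igfbp3 of the S100β-GFP+ cells, 259 to 372 CPM against 103 to 190.2, and there the log2 fold change without them was -1.36 (adjusted p = 0.000244, edgeR). An exon of Igfbp7 overlaps one of Polr2b on the opposite strand, and the sources used here do not give whether counting used strand. A part of its counts could belong to Polr2b, which itself averaged 37.9, 36.6 and 59.0 CPM.

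**Figure D2:**
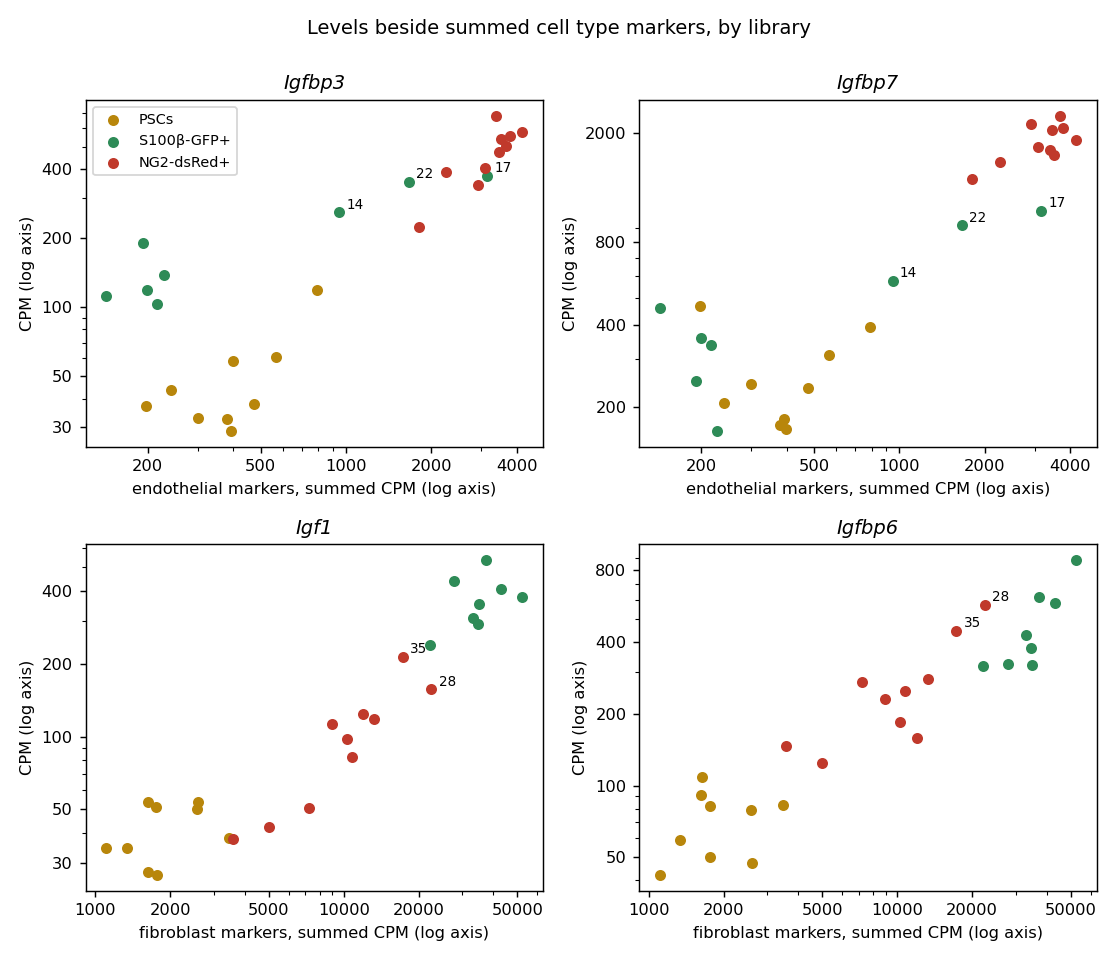
CPM of Igfbp3 and Igfbp7 against the summed CPM of 9 endothelial markers, and of Igf1 and Igfbp6 against the summed CPM of 10 fibroblast markers (log axes), one point per library, coloured by cell type. S100β-GFP+ libraries 14, 17 and 22 had more endothelial marker RNA and more Igfbp3 and Igfbp7 than the other 5 (and, not plotted, more pericyte and less macrophage marker RNA), and NG2-dsRed+ libraries 28 and 35 had the most fibroblast marker RNA and the most Igf1 and Igfbp6 of their cell type.

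Igfbp4, which inhibits IGF action until it is cut by the protease PAPP-A, did not differ detectably between PSCs and the other cells in edgeR with all libraries in. The PSC libraries lay between 61.8 and 946 CPM (median 204), the S100β-GFP+ libraries between 206 and 554 (median 385) and the NG2-dsRed+ libraries between 206 and 299.7 (median 247). All groups overlapped, and the PSC spread was the widest of any tested member (coefficient of variation 92.5%), with library 18 at 946 CPM and the other 8 between 61.8 and 411. The log2 fold change against S100β-GFP+ cells was -0.45 (95% interval -1.12 to 0.22, adjusted p = 0.272, edgeR). Without library 18 it was -0.90 and passed (adjusted p = 0.00254, edgeR), but leaving out the PSC library with the highest Igfbp4 had to lower the PSC mean. With all libraries in, limma-voom with sample quality weights gave -0.97 and passed (adjusted p = 0.000671), while DESeq2 gave -0.48 (adjusted p = 0.246, Wald test). Against NG2-dsRed+ cells the log2 fold change was 0.21 (-0.42 to 0.84, adjusted p = 0.622, edgeR) and turned to -0.22 without library 18 (adjusted p = 0.449). Library 18 had the fewest counts of the PSC libraries (5334916), and the highest summed macrophage (569 CPM) and muscle fibre markers (1203 CPM) of them, and their part in its values was not tested.

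Counted together against S100β-GFP+ cells, 5 of the 8 tested members were lower in PSCs (Igf1, Igfbp3, Igfbp5, Igfbp6 and Igfbp7) and 1 was higher (Igf1r). Among all 15330 genes tested 47% passed, 24.1% lower and 22.9% higher. The median log2 fold change was -1.50 over the 8 members and 0.04 over all genes. Another fit left out PSC library 18 and S100β-GFP+ libraries 14, 17 and 22, chosen after seeing the data. Igfbp4 was called lower there, Igfbp7 lost its call and the other calls stayed. Library 18 had the highest Igfbp4 of the PSC libraries, and libraries 14, 17 and 22 the highest Igfbp7 of their gate. Leaving them out had to lower the PSC mean of Igfbp4 and the S100β-GFP+ mean of Igfbp7. With all libraries in, CPM did not overlap for Igf1, Igfbp5 and Igfbp6, 3 of the 8, all lower in PSCs, against 10.3% of all genes in that direction and 5.26% in the other.

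Against NG2-dsRed+ cells 5 of the 8 members were lower in PSCs (Igf1, Igfbp3, Igfbp5, Igfbp6 and Igfbp7), and Igf1r, Insr and Igfbp4 did not pass. Among all genes 44% passed, 23.1% lower and 20.9% higher. DESeq2 called 5 members as well and limma-voom 6, with Igf1r as the added one. The median log2 fold change was -1.62 over the members and 0.02 over all genes. CPM did not overlap for Igfbp3, Igfbp5, Igfbp6 and Igfbp7, 4 of the 8, against 8.83% of all genes lower and 5.06% higher in PSCs. Both comparisons use the same PSC libraries, so their calls are not independent of each other.

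**Figure D3:**
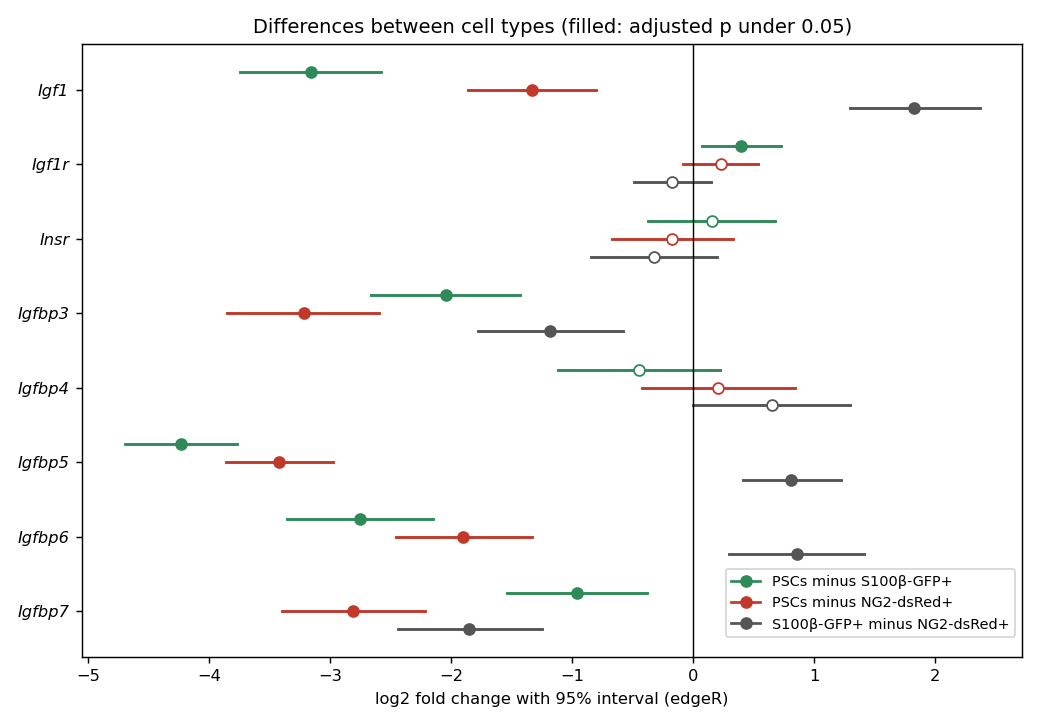
log2 fold change (points) with 95% interval (lines) of the 8 tested genes in 3 comparisons of cell types from the edgeR fit; filled points had an adjusted p under 0.05. Igfbp5 lay farthest from 0, at -4.23 and -3.42 in PSCs, and the intervals of Insr and of Igfbp4 held 0 in both comparisons of PSCs.

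The S100β-GFP+ and NG2-dsRed+ cells differed from each other in which members they held. Igf1 was 3.56-fold higher in S100β-GFP+ cells (log2 fold change 1.83, SE 0.26, adjusted p = 2.03e-06, edgeR), and Igfbp5 was 1.76-fold and Igfbp6 1.81-fold higher (adjusted p = 0.0017 and 0.0147, edgeR). Igfbp7 was 3.60-fold and Igfbp3 2.27-fold lower (adjusted p = 8.15e-06 and 0.00209, edgeR). This made 3 members higher and 2 lower of the 8, beside 18.1% and 15.2% of all genes. The Igfbp6 call was lost without S100β-GFP+ library 14 (log2 fold change 0.67, adjusted p = 0.0551, edgeR). Only Igf1 (higher) and Igfbp7 (lower) did not overlap between these cell types, beside 7.15% and 4.44% of all genes.

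Per kilobase of exon, which allows genes to be compared with each other, the binding proteins exceeded the ligand and the receptors in all cell types except Igfbp2, the lowest member throughout. In PSCs the binding proteins ran in the order Igfbp7 (218 ± 87.6 CPM per kilobase), Igfbp4 (64.8 ± 60.0), Igfbp6 (64.3 ± 20.5), Igfbp3 (16.0 ± 8.98) and Igfbp5 (9.66 ± 1.89). Igfbp4 and Igfbp6 could not be ordered, since Igfbp4 was higher in only 4 of 9 libraries. The order went on with Igf1r (6.05 ± 1.53), Igf1 (4.16 ± 1.12) and Insr (2.40 ± 1.11), and Igfbp2 came last (0.372 ± 0.478). Each other neighbour above Igfbp2 was higher than the next in at least 8 of 9. Igf1r thus stood above its ligand Igf1 in PSCs, in 8 of 9 libraries. In S100β-GFP+ cells the order was Igfbp6, Igfbp7, Igfbp5, Igfbp4, Igfbp3, Igf1, Igf1r, Insr and Igfbp2, of which Igfbp6 and Igfbp7 were in that order in 6 of 8 libraries, and Igfbp4 and Igfbp3, like Igfbp3 and Igf1, in 5 of 8. In NG2-dsRed+ cells it was Igfbp7, Igfbp6, Igfbp3, Igfbp5, Igfbp4, Igf1, Igf1r, Insr and Igfbp2, with Igfbp6 above Igfbp3 in 7 of 10. In S100β-GFP+ cells Igf1 (37.2 ± 9.43) was above Igf1r (4.59 ± 0.978) in all 8 libraries, and in NG2-dsRed+ cells (10.5 ± 5.55 against 5.17 ± 0.573) in 7 of 10.

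The 6 binding proteins together reached 373 ± 144 CPM per kilobase in PSCs, against 1193 ± 389.9 in S100β-GFP+ and 2083 ± 163 in NG2-dsRed+ libraries. Igfbp7 made up 58.2% ± 7.22 of that sum in PSCs, against 33.7% ± 14.0 in S100β-GFP+ and 73.3% ± 7.26 in NG2-dsRed+ libraries. Igfbp6 was the largest part in S100β-GFP+ cells (37.2% ± 10.5) and made up 18.2% ± 6.49 in PSCs. The share of Igfbp5 was 2.78% ± 0.787 in PSCs against 15.9% ± 4.71 and 5.03% ± 1.69 in the S100β-GFP+ and NG2-dsRed+ cells. The share of Igfbp4 ran the other way, 16.3% ± 9.26 in PSCs against 7.53% ± 1.51 and 2.71% ± 0.416. It ran from 4.18% to 31.5% among the PSC libraries. The level of Igfbp4 itself was not raised in the same way, at 64.8 CPM per kilobase in PSCs against 88.2 and 56.2. These shares are a description without a test.

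**Figure D4:**
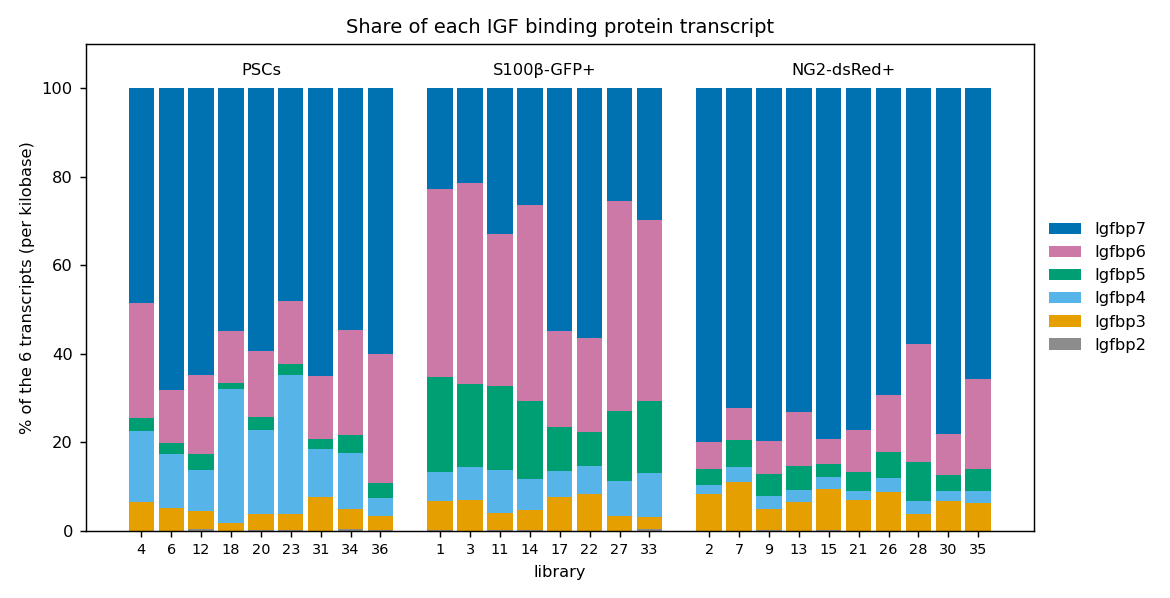
Share of each IGF binding protein transcript in the sum of 6 (percent of CPM per kilobase, stacked bars from 0 to 100%), one bar per library, by cell type. Igfbp7 ran from 48.0% to 68.2% in PSCs and from 57.8% to 80.0% in NG2-dsRed+ cells, and Igfbp4 reached 31.5% in PSC library 23.

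The pattern of each member over the 27 libraries was compared with that of all tested genes by the Pearson correlation of log2 CPM, a description in which libraries share 3 cell types and their depth. The genes most like Igf1 were Col14a1 (r = 0.98), a fibril-associated collagen, Mfap5 (0.96) and Clec3b (0.96). Igfbp5 was most like Ddr2 (0.98), a collagen receptor, Serping1 (0.97) and Eya2 (0.97), and Igfbp6 like Dcn (0.96), which encodes decorin and is one of the fibroblast markers above, Nupr1 (0.95) and Serpinf1 (0.94). Igfbp3 was most like Efnb2 (0.97), a membrane ligand of Eph receptors, Arhgap29 (0.97) and Ly6e (0.96), and Igfbp7 like Mfge8 (0.97), Rasl11a (0.97) and Plcb4 (0.96). The likeness was lower for Igfbp4 (Stat5b 0.87, Gga1 0.85), Insr (Zmym2 0.91, Limk2 0.89, Ireb2 0.89) and Igf1r (Gm36936, Amer1 and Zfp760, each 0.85). Among the members, Igfbp5 and Igfbp6 were the most alike (r = 0.93), followed by Igfbp3 and Igfbp7 (0.88) and by Igf1 and Igfbp6 (0.87).

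Of 10 other ligands, receptors and binding proteins of the family, 2 could be tested, Igf2 and Igf2r, and both were lower in PSCs in each comparison. Of all genes 24.1% were lower against S100β-GFP+ cells, 23.1% against NG2-dsRed+ cells and 14.4% in both. Among the untested genes Insl6 had the highest mean in PSCs, 2.76 CPM, against 0.481 in S100β-GFP+ and 0.299 in NG2-dsRed+ libraries. Igf2, the second IGF ligand, averaged 58.2 ± 43.0 CPM in PSCs, 185 ± 83.1 in the S100β-GFP+ and 592 ± 304 in the NG2-dsRed+ libraries. The Igf2 log2 fold change of PSCs was -1.67 against S100β-GFP+ and -3.34 against NG2-dsRed+ cells (adjusted p = 0.00118 and 1.42e-07, edgeR). Exons of Igf2 overlap other annotated genes, Gm49394 on the same strand among them, so its counts are uncertain. Igf2r, the receptor that clears IGF-2, averaged 22.6 ± 10.0, 79.7 ± 22.0 and 152 ± 31.5 CPM, with log2 fold changes of -1.82 and -2.75 in PSCs (adjusted p = 2.79e-05 and 4.3e-08, edgeR). Igfbp1 had no count in PSCs, which allows up to 3 counts over those libraries by counting error alone.

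Proteases that cut IGF binding proteins, and the stanniocalcins that inhibit some of them, moved in both directions. Against S100β-GFP+ cells 1 of the 8 tested was higher in PSCs (Adam12) and 4 were lower (Pappa, Htra3, Mmp2 and Ctsd), beside 22.9% and 24.1% of all genes. Against NG2-dsRed+ cells 3 were higher (Htra1, Adam12 and Mmp2) and 4 lower (Pappa, Htra3, Stc1 and Stc2), beside 20.9% and 23.1%. Over the tested genes of this list the log2 fold change had a median of -0.82 and -0.90. Adam12, a metalloprotease reported to cut IGFBP-3 and IGFBP-5, averaged 174 CPM in PSCs against 13.9 in the S100β-GFP+ and 7.94 in the NG2-dsRed+ libraries (log2 fold changes 3.64 and 4.45, adjusted p = 1.91e-11 and 1.2e-13, edgeR). Adam12 is among the genes that the study picked as PSC-enriched on these samples, so this is no independent evidence. Pappa, which encodes PAPP-A, averaged 0.554, 6.23 and 15.7 CPM (log2 fold changes -3.40 and -4.73, adjusted p = 1.21e-05 and 7.88e-08, edgeR). Htra3, a secreted serine protease, was at 22.5 CPM in PSCs against 495 in the S100β-GFP+ gate (log2 fold change -4.46, adjusted p = 8.06e-12, edgeR). Stc1, a PAPP-A inhibitor, was at 7.94 CPM in PSCs against 71.1 in the NG2-dsRed+ gate (log2 fold change -3.14, adjusted p = 1.53e-06, edgeR).

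Of 25 tested adaptors, kinases and brakes below the receptors, 4 were higher (Gab1, Pik3ca and Foxo1 among them) and 11 lower in PSCs when set against the S100β-GFP+ gate, the list's median being -0.19 on the log2 scale. Over all genes 47% passed in that comparison, 22.9% higher and 24.1% lower. Against NG2-dsRed+ cells 1 was higher (Foxo1, a transcription factor restrained by AKT) and 13 were lower, with a median of -0.55, where 44% of all genes passed, 20.9% higher and 23.1% lower. The kinase gene Akt1 and the adaptor genes Irs2, Irs3 and Shc1 were lower in both. The largest differences were in genes of few counts in PSCs. Pik3cd, a PI3 kinase subunit best known from leukocytes, averaged 2.24 CPM in PSCs against 29.6 in the S100β-GFP+ and 16.1 in the NG2-dsRed+ libraries (log2 fold changes -3.78 and -2.89, adjusted p = 3.74e-08 and 2e-06, edgeR). Macrophage markers were higher in S100β-GFP+ than in NG2-dsRed+ libraries as given above, and their part in Pik3cd was not tested. The adaptor gene Sh2b2 was at 0.919 CPM in PSCs against 5.01 in the S100β-GFP+ gate (log2 fold change -2.46, adjusted p = 0.0011, edgeR). Irs3 was at 0.314, 1.34 and 3.11 CPM (log2 fold changes -1.95 and -3.14, adjusted p = 0.0225 and 0.000361, edgeR), with counts in only 3 of 9 PSC libraries. Without PSC library 20 the Irs3 log2 fold changes were -3.35 and -4.50, and without S100β-GFP+ libraries 14, 17 and 22 the Irs3 call against that gate was lost (log2 fold change -1.90). Pik3cb was at 4.77 CPM in PSCs against 22.2 in the NG2-dsRed+ gate (log2 fold change -2.20, adjusted p = 5.08e-07, edgeR). Gab1 is in a table of genes that the study followed in these samples.

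Growth hormone, acting through GHR, JAK2 and STAT5, is a known inducer of Igf1. All 7 listed genes of that axis were tested. Against S100β-GFP+ cells 4 were lower in PSCs (Jak2, Stat5a, Socs3 and Cish), and against NG2-dsRed+ cells 2 were lower (Socs2 and Cish), while the others did not pass. Of all genes 24.1% and 23.1% were lower. The medians were -0.85 and -0.35. Cish, a feedback inhibitor induced by STAT5, averaged 7.48 CPM in PSCs against 55.2 in the S100β-GFP+ and 21.5 in the NG2-dsRed+ libraries (log2 fold changes -2.90 and -1.53, adjusted p = 1.68e-09 and 3.15e-05, edgeR). Exons of Cish overlap 2 genes on the opposite strand. Jak2 was at 38.5 CPM in PSCs against 84.2 in the S100β-GFP+ gate (log2 fold change -1.13, adjusted p = 2.29e-05, edgeR) and Socs3 at 259 against 526 (-1.03, adjusted p = 0.00284, edgeR). Socs2 was at 32.9 CPM in PSCs against 53.8 in NG2-dsRed+ cells (log2 fold change -0.71, adjusted p = 3.2e-05, edgeR).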

How the data were processed

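The deposited table held raw counts per Ensembl gene. The authors amplified cDNA with a SMART-Seq v4 kit and used Btrim and ea-utils for trimming, HISAT2 for alignment to GRCm38 and HTSeq for counting (for versions, annotation and use of strand: not given in the sources used here). Columns were matched to samples by the library number in the titles. The table held 27 of 36 libraries. The study used fewer S100β-GFP+ libraries after quality control than the 8 columns hold and does not name the one left out, so all 8 were used. PCR copies could not be told apart, so counts of 0 and their limit of 3 counts cover counting error only.

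Gene names came from GENCODE M21 (52489 of 52636 IDs, 99.72%). All libraries were fitted together with edgeR 4.0.16 (TMM, glmQLFit and glmQLFTest, R 4.3.3) on the 15330 genes kept by filterByExpr (minimum count 10), with Benjamini-Hochberg adjustment over all of them at 0.05. DESeq2 1.42.0 and limma-voom 3.58.1 were alternatives. In counts simulated for PSCs against S100β-GFP+ cells, with 15402 genes tested, edgeR recovered 84.5% of 4-fold and 32.3% of 2-fold changes. The simulated cell types were equal except in a small set of genes changed in PSCs, unlike the data, where 47% of genes passed. False calls made up 3.42% of the simulated calls in edgeR, 2.63% in limma-voom and 12.3% in DESeq2. Against NG2-dsRed+ cells they made up 19.3% in DESeq2. In every pair of libraries of a cell type the counts differed beyond sampling noise (chi-square divided by its degrees of freedom at least 8.93). Each library is from 1 mouse.

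Members and lists were chosen with earlier results of these data known. Values are given for the members, for Igf2 and Igf2r, for the 3 other genes per pathway list with the largest change past the threshold in a comparison of PSCs, for the 3 genes most like each tested member, and for marker genes that check the sort. A few genes that this rule or the lists would name are not reported here. CPM per kilobase used the union of a gene's exons. The receptor ratio used counts plus 0.5.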

Additional observations from a re-analysis of the deposited data

Results flagged for a closer look

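Of 30 sets of values (CPM of the 9 members and the receptor ratio, in each cell type), 5 held a library far from the others of its cell type by Dixon's test, of which chance gives about 1 in 20. PSC library 18 was low for Igf1r, at 42.9 CPM against 95.6 to 130.1 in the other PSC libraries, and high for Igfbp4, at 946 CPM against 61.8 to 411. PSC library 31 was high for Igfbp3, at 119 CPM against 28.9 to 60.7. S100β-GFP+ library 33 was high for Igfbp2, at 8.84 CPM against 0.124 to 1.93. NG2-dsRed+ library 28 was high for Igfbp5, at 1034 CPM against 359 to 703.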

How the results depend on the processing

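The number of members called stayed between 5 and 7 for PSCs against S100β-GFP+ cells, 5 and 6 for PSCs against NG2-dsRed+ cells and 4 and 6 between the other cell types under all alternatives run (DESeq2, its size factors in edgeR, no filter, only the cell types compared, limma-voom, a term for each library's share of Lars2, Gm15564 and Gm23935 counts, and left-out libraries). Of the members' fold changes recomputed, 805 kept direction and side of the threshold, 10 gained a call, 19 lost one and 6 turned sign. Turned were Insr against NG2-dsRed+ cells, to 0.04 with the share term, 0.05 without PSC library 18 and 0.02 without it and S100β-GFP+ libraries 14, 17 and 22 (chosen after seeing the data), and Igfbp4 against NG2-dsRed+ cells, to -0.41 with limma-voom, -0.22 without library 18 and -0.25 without the 4 libraries. With each library left out in turn these ranged from -0.29 to 0.05 and from -0.22 to 0.38. The Igf1r call against S100β-GFP+ cells was lost with DESeq2, its size factors, no filter or only the cell types compared (adjusted p 0.0542 to 0.116) and without PSC library 6, 23 or 31, S100β-GFP+ library 1, 3, 27 or 33 or NG2-dsRed+ library 7 or 30. Igfbp7 against S100β-GFP+ cells was -0.61 with the share term (adjusted p = 0.0863, edgeR). Igfbp6 between S100β-GFP+ and NG2-dsRed+ cells was 0.73 without libraries 14, 17 and 22 (adjusted p = 0.0655, edgeR). Igfbp4 gained a call there with limma-voom (0.56), with only these cell types (0.67) or without PSC library 18 (0.68). Between PSCs and S100β-GFP+ cells Igfbp4 gained one with limma-voom (-0.97), without library 18 (-0.90) or without the 4 libraries (-0.75). The receptor ratio difference between PSCs and NG2-dsRed+ cells ranged from 0.39 to 0.62 and lost its call without PSC library 4, 12, 18, 23 or 34 or NG2-dsRed+ library 2, 7, 9, 15, 21, 26, 30 or 35. The cause was not tested. Igfbp2, with few counts at this depth, was not called in any comparison by DESeq2 or by edgeR without the filter. No paired analysis was possible because each library number belongs to 1 cell type only and the labels do not name the mouse. Whether libraries of different cell types came from the same mouse is not known, and the tests treated all libraries as independent.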
